A study of Rattus norvegicus with 12 samples.

Results

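A list of 40 genes for glucose uptake, glycolysis, the pentose phosphate pathway, glycerol 3-phosphate formation and glycogen turnover was followed in INS-1 cells, which derive from a rat insulinoma and release insulin when glucose rises. The genes were chosen by name, and all 40 were found among the 28727 named genes of the count table. The cells carried an adenovirus for GFP, the control, or for mCherry-tagged mouse ChREBPβ, and were kept in 2 mM or 11 mM glucose for 48 h. The 4 groups were therefore GFP at 2 mM, GFP at 11 mM, ChREBPβ at 2 mM and ChREBPβ at 11 mM, with 3 sequenced libraries in each, 12 in all. Every group carried a virus, so no comparison is with untransduced cells. In the study the name INS-1 stands for a line derived from INS-1, so the results are from a single tumour line. ChREBPβ was added on top of the cells' own ChREBP. In such bulk libraries, fewer cells of a kind cannot be told apart from less RNA per cell.

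Glycolysis splits glucose into pyruvate in the cytosol, and the β-cell depends on it because the ATP made from pyruvate closes potassium channels and triggers insulin release. The pentose phosphate pathway branches off at glucose 6-phosphate and yields NADPH and ribose, while glycogen stores glucose units for later use. ChREBP, encoded by Mlxipl, is a transcription factor activated by glucose metabolites that binds a carbohydrate response element, and ChREBPβ is its short isoform, which lacks the part that holds the protein inactive in low glucose.

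Library totals lay between 25754488 and 60531215 counts, and levels are given below as CPM, counts scaled to library size, after TMM scaling, which is edgeR's correction for differences in library makeup. Of the 40 members, 36 had at least 10 counts in every library and 39 passed the filter on low counts. Eno2, the neuronal enolase, did not pass, with 0 to 5 counts. Slc2a3 had 1 to 33 counts, Hk2 5 to 56 and Tpi1 5 to 23. The insulinoma label held, since the summed level of 10 β-cell markers was 15716 to 17637 CPM with GFP at 2 mM, 11860 to 12874 with GFP at 11 mM, 6472 to 6583 with ChREBPβ at 2 mM and 5425 to 5750 with ChREBPβ at 11 mM. These markers moved with the groups, and 10 of the 10 were called lower with ChREBPβ at 2 mM. The sum of 5 α-cell markers was 1617 to 1694 CPM with GFP at 2 mM, 1618 to 1730 with GFP at 11 mM, 437 to 448 with ChREBPβ at 2 mM and 456 to 508 with ChREBPβ at 11 mM. The part of either shift in the results below was not tested. Marker sums were at most 0.554 CPM for δ-cells, with Rbp4 at 0, 0.143 for PP cells, 0.0731 for acinar cells, with Prss1 at 0, and 0.179 for fibroblasts, with Dcn and Lum at 0. The transgene is of mouse sequence, so the rat Mlxipl entry checks the virus only where mouse reads were counted on it. At 2 mM, Mlxipl stood at 256 ± 18.8 CPM in GFP cells and 205 ± 6.63 CPM in ChREBPβ cells (SD, n = 3). A separate entry named ChREBPb stood at 77.8 ± 4.53 and 90.2 ± 0.504 CPM in the same groups. At 11 mM, Mlxipl was at 207 ± 5.32 and 188 ± 11.0 CPM and the ChREBPb entry at 68.0 ± 4.63 and 88.0 ± 9.0 CPM. Mlxipl was called lower with ChREBPβ at 2 mM and not at 11 mM, and the ChREBPb entry was called higher at 11 mM and not at 2 mM.

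The comparison of ChREBPβ with GFP at 2 mM glucose addresses what the active isoform does where the sugar itself is low. Of the 39 members tested, 21 were called higher and 5 lower, where called means an adjusted p under 0.05 by edgeR's quasi-likelihood test and a change of at least 1.2-fold. Over all 14669 genes tested, 21.0% were called higher and 23.2% lower. At 11 mM, 19 members were called higher and 3 lower, beside 14.3% and 19.1% of all genes. The median log2 fold change of the members was 0.49 at 2 mM and 0.24 at 11 mM, against -0.02 at both for all genes. Under scaling by library totals alone, the members split into 20 higher and 9 lower at 2 mM and into 18 and 6 at 11 mM, and the share of higher calls over all called genes went from 47.5% to 33.2% at 2 mM and from 42.9% to 29.3% at 11 mM. All 19 members called higher at 11 mM were also called higher at 2 mM, the 3 called lower at both were Pfkfb2, Aldoc and Khk, and 0 were called in opposite directions. All 3 ChREBPβ libraries were above all 3 GFP libraries for 24 members and below them for 8 at 2 mM, beside 31.2% and 32.1% of all genes, and for 23 and 9 members at 11 mM, beside 26.4% and 29.7%. The 40 members together made up 0.806% ± 0.042 (SD, n = 3) of the TMM-scaled library size in GFP cells at 2 mM. Those cells had 1.09% ± 0.038 at 11 mM. In ChREBPβ cells the share was 1.48% ± 0.0309 at 2 mM and 1.69% ± 0.0736 at 11 mM. TMM factors were 1.01 to 1.06 in GFP libraries and 0.958 to 0.977 in ChREBPβ libraries. Shares of the raw counts would therefore differ less between the viruses.

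**Figure D1:**
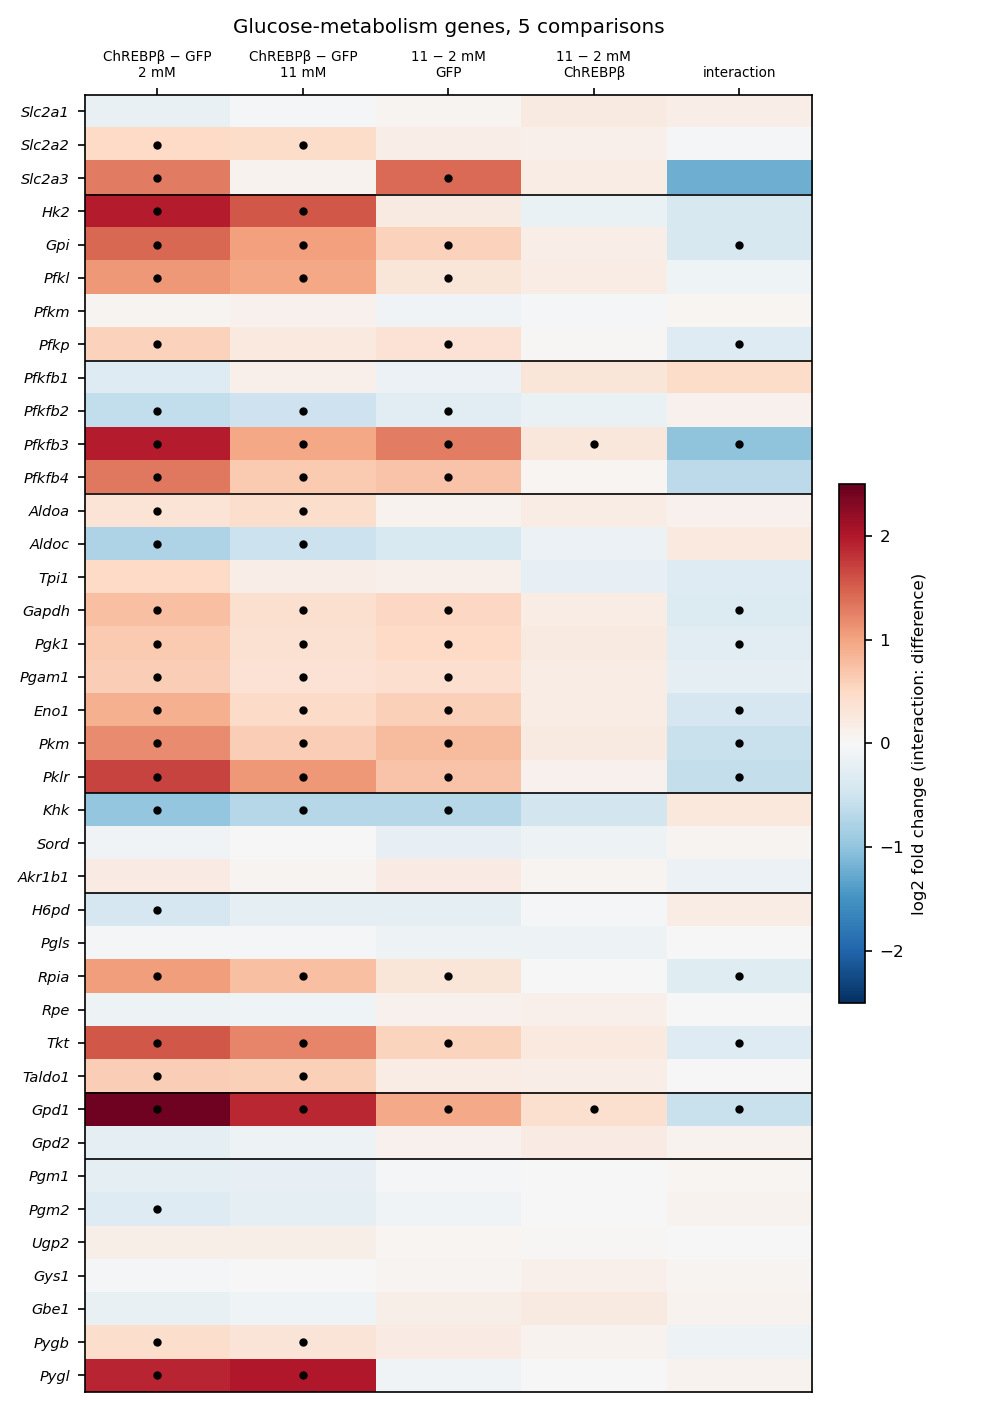
Log2 fold changes of the 39 tested members, 1 gene a row, in 5 columns, namely ChREBPβ minus GFP at 2 and 11 mM glucose, 11 minus 2 mM with GFP and with ChREBPβ, and the interaction, which is the ChREBPβ effect at 11 mM minus that at 2 mM. Red is higher, blue is lower, a black dot marks a called gene and lines separate the steps of metabolism. The left column holds 21 higher and 5 lower calls and the fourth column 2 higher calls.

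**Figure D2:**
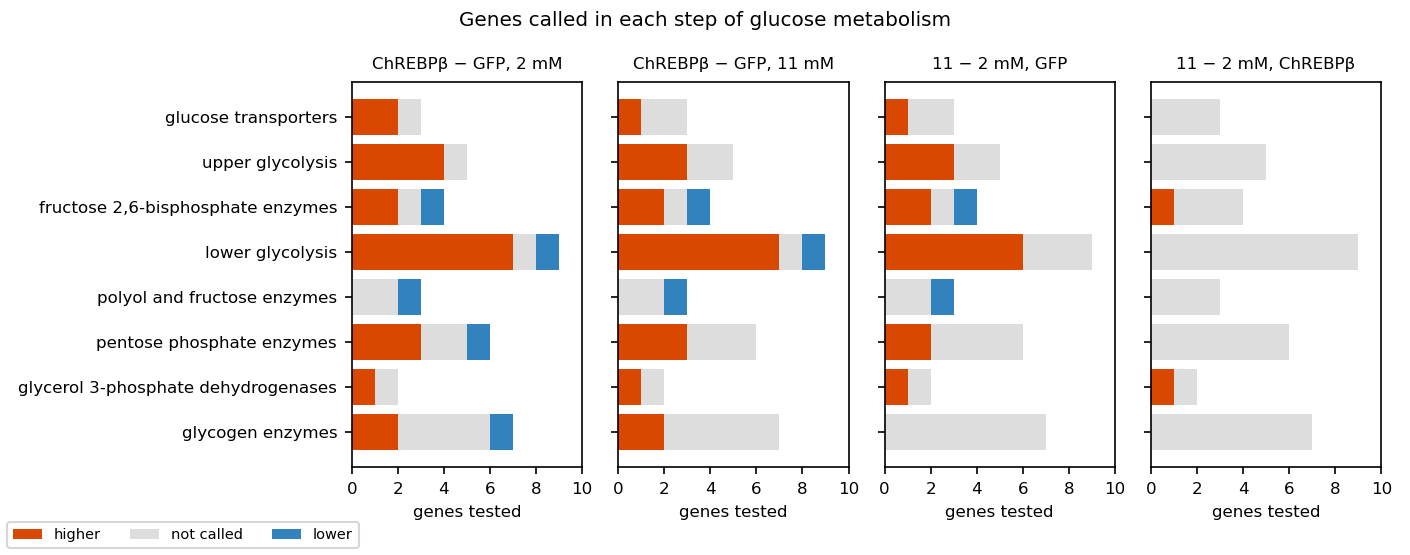
Number of tested members (x axis) called higher (orange), not called (grey) or called lower (blue) in each of 8 steps of glucose metabolism (y axis), with 1 panel for each of 4 comparisons. Lower glycolysis has 7 of its 9 tested genes called higher with ChREBPβ at either glucose level, and glycogen enzymes have 2 of 7. Over all genes, 21.0% were called higher at 2 mM and 14.3% at 11 mM.

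Among the glucose transporters, Slc2a2, which encodes GLUT2, the main β-cell transporter of rodents, was called higher with ChREBPβ. At 2 mM it stood at 438 ± 13.8 CPM in GFP cells and 618 ± 18.2 in ChREBPβ cells, a log2 fold change of 0.50 ± 0.04 (SE), and 489 ± 16.1 against 675 ± 10.2 CPM at 11 mM, a log2 fold change of 0.46 ± 0.04. Slc2a1, which encodes the widespread transporter GLUT1, was not called, with log2 fold changes of -0.19 ± 0.08 at 2 mM and -0.03 ± 0.08 at 11 mM. The log2 ratio of Slc2a2 to Slc2a1 was therefore higher with ChREBPβ by 0.69 ± 0.06 at 2 mM and 0.50 ± 0.14 at 11 mM. Slc2a3, for the transporter GLUT3, was near the limit of detection. Its 3 GFP libraries at 2 mM had 0.0368, 0.262 and 0.16 CPM, those with GFP at 11 mM 0.465, 0.429 and 0.402, those with ChREBPβ at 2 mM 0.501, 0.321 and 0.412, and those with ChREBPβ at 11 mM 0.495, 0.579 and 0.293. The low group was GFP at 2 mM, where the first library had a single count, and its range lay below those of the other 3 groups. The call at 2 mM, a log2 fold change of 1.30 ± 0.50, was lost without GFP library a (0.90) or c (1.30) or without ChREBPβ library a (1.18) or c (1.28) of that glucose level.

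In upper glycolysis, 4 of 5 members were called higher with ChREBPβ at 2 mM and 3 at 11 mM, beside 21.0% and 14.3% of all genes. Gpi encodes the isomerase that turns glucose 6-phosphate into fructose 6-phosphate. Its 3 libraries had 388, 405 and 435 CPM with GFP at 2 mM, 620, 589 and 623 with GFP at 11 mM, 1089, 1116 and 1126 with ChREBPβ at 2 mM, and 1189, 1264 and 1289 with ChREBPβ at 11 mM. The 4 groups did not overlap and stood in that order. ChREBPβ changed it by 1.44 ± 0.05 at 2 mM and 1.03 ± 0.04 at 11 mM on the log2 scale (edgeR quasi-likelihood test, adjusted p = 8.7e-16 and 2.2e-13). Hk2, for the hexokinase that phosphorylates glucose and is scarce in normal β-cells, had 0.331, 0.175 and 0.16 CPM with GFP at 2 mM, 0.265, 0.295 and 0.212 with GFP at 11 mM, 0.824, 0.998 and 0.734 with ChREBPβ at 2 mM, and 0.75, 0.667 and 0.859 with ChREBPβ at 11 mM. Each ChREBPβ library was above each GFP library, with log2 fold changes of 1.97 ± 0.36 at 2 mM and 1.56 ± 0.32 at 11 mM, although the gene was at most 56 counts in any library.

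The 3 phosphofructokinases, which commit the sugar to glycolysis, differed in their calls. Pfkl, the liver form, was called higher, with 148 ± 3.71 CPM in GFP cells and 312 ± 3.7 in ChREBPβ cells at 2 mM, and log2 fold changes of 1.08 ± 0.05 at 2 mM and 0.97 ± 0.05 at 11 mM. Pfkm, the muscle form, was not called and its log2 fold changes were 0.07 ± 0.04 and 0.11 ± 0.04. The log2 ratio of Pfkl to Pfkm rose by 1.01 ± 0.02 at 2 mM and 0.86 ± 0.08 at 11 mM, and the libraries of the compared groups did not overlap in it. Pfkp, the platelet form, had 60.3, 66.7 and 60.8 CPM with GFP at 2 mM, 81.3, 77.7 and 81.1 with GFP at 11 mM, 96.9, 86.8 and 95 with ChREBPβ at 2 mM, and 92.8, 92.7 and 98.9 with ChREBPβ at 11 mM. Its GFP libraries at 2 mM were the lowest and the ChREBPβ groups overlapped each other. The call for Pfkp was at 2 mM, with a log2 fold change of 0.57 ± 0.05, while 0.24 ± 0.05 at 11 mM was under the minimum fold.

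The Pfkfb genes encode bifunctional enzymes that make and break fructose 2,6-bisphosphate, the strongest activator of phosphofructokinase. Pfkfb3, an isoenzyme that mainly makes it, had 19.4, 19.4 and 22 CPM with GFP at 2 mM, 50.7, 47.7 and 49.9 with GFP at 11 mM, 81.5, 77.5 and 78.2 with ChREBPβ at 2 mM, and 94.3, 95.4 and 100 with ChREBPβ at 11 mM. The groups stood in that order without overlap, and ChREBPβ at 2 mM exceeded GFP at 11 mM. ChREBPβ raised Pfkfb3 by a log2 1.96 ± 0.06 at 2 mM and by 0.97 ± 0.05 at 11 mM (edgeR quasi-likelihood test, adjusted p = 1.5e-16 and 3.3e-12). Pfkfb4 was called in the same direction, with 3.21 ± 0.775 CPM in GFP cells and 7.89 ± 1.12 in ChREBPβ cells at 2 mM, and log2 fold changes of 1.31 ± 0.15 and 0.66 ± 0.13. Pfkfb2, the heart form, which also occurs in islets, went the other way. It had 91.2, 88.5 and 89.1 CPM with GFP at 2 mM, 69.1, 78.9 and 72.1 with GFP at 11 mM, 57.3, 59.6 and 57.5 with ChREBPβ at 2 mM, and 54.8, 50.4 and 49.2 with ChREBPβ at 11 mM. Its 4 groups fell in that order without overlap, with log2 fold changes for ChREBPβ of -0.62 ± 0.05 at 2 mM and -0.51 ± 0.05 at 11 mM. The log2 ratio of Pfkfb2 to Pfkfb3 changed by -2.59 ± 0.08 at 2 mM and -1.48 ± 0.11 at 11 mM. Pfkfb1, with 40 to 116 counts, was not called, at -0.33 ± 0.19 and 0.13 ± 0.18.

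Promoter sequence from RefSeq was at hand for 35 of the 40 members, in 38 windows running from 250 bases before a start site to 50 after it in the GRCr8 assembly. The E-box CACGTG lay in 6.42% of the 33469 windows of all genes and in 1 member's, that of Pfkfb3. A loose form of the carbohydrate response element, CANGNGNNNNNCNCNTG, which is a pair of E-box-like ends with 5 bases between them, lay in 0.562% of all windows and in 1 member's, that of Pklr, the liver and red cell pyruvate kinase. Both patterns read the same on either strand, and a full element may hold an E-box as one of its ends. The 2 stretches shown are those of the only members with a match, and they differ in which pattern they hold. The Pklr stretch is chr2:176841014-176841263 on the plus strand, ending at the base before the start site, and the Pfkfb3 stretch is chr17:71944833-71944932, also plus and ending there. The matched ends of the Pklr element, whose match begins 168 bases before the start, and the E-box of Pfkfb3, 42 bases before it, are in capitals.
Pklr: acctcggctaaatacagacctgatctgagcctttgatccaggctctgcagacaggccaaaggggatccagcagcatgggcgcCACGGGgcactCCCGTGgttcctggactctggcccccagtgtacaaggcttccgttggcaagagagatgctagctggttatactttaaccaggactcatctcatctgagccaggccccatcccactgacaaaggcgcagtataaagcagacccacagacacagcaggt
Pfkfb3: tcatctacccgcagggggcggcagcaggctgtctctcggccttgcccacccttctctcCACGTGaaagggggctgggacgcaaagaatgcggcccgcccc
Such a match describes the letters in the window. Binding was not measured in these libraries.

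In lower glycolysis, from aldolase to pyruvate kinase, 7 of 9 tested members were called higher and 1 lower with ChREBPβ at each glucose level. Over all genes, 21.0% were called higher and 23.2% lower at 2 mM, and 14.3% and 19.1% at 11 mM. Pklr, the pyruvate kinase whose promoter is printed above, had 126, 133 and 129 CPM with GFP at 2 mM, 218, 193 and 222 with GFP at 11 mM, 406, 419 and 426 with ChREBPβ at 2 mM, and 442, 448 and 449 with ChREBPβ at 11 mM. Every ChREBPβ library was above every GFP library. The increase on the log2 scale came to 1.69 ± 0.05 at 2 mM and 1.08 ± 0.05 at 11 mM (edgeR quasi-likelihood test, adjusted p = 1.5e-16 and 1.7e-13). Pkm, for the other pyruvate kinase, had 626, 677 and 684 CPM with GFP at 2 mM, 1158, 1087 and 1176 with GFP at 11 mM, 1450, 1523 and 1542 with ChREBPβ at 2 mM, and 1646, 1793 and 1813 with ChREBPβ at 11 mM. The order of the groups was the same and none overlapped, with log2 fold changes of 1.18 ± 0.05 and 0.62 ± 0.05. The log2 ratio of Pklr to Pkm was higher with ChREBPβ by 0.50 ± 0.03 at 2 mM and 0.47 ± 0.05 at 11 mM, while with glucose in GFP cells it was lower by a log2 difference of -0.08 ± 0.04.

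The steps between the aldolases and pyruvate kinase had smaller log2 fold changes. Gapdh, for the dehydrogenase that makes NADH, had 1221, 1344 and 1433 CPM with GFP at 2 mM, 1885, 1877 and 1976 with GFP at 11 mM, 2188, 2262 and 2274 with ChREBPβ at 2 mM, and 2450, 2545 and 2604 with ChREBPβ at 11 mM. On the log2 scale ChREBPβ raised it by 0.75 ± 0.05 at 2 mM and 0.41 ± 0.05 at 11 mM, so a gene often used as a constant reference was not constant across these groups. Pgk1, for the kinase that yields ATP in the next step, had 385, 402 and 411 CPM with GFP at 2 mM, 584, 541 and 571 with GFP at 11 mM, 615, 632 and 630 with ChREBPβ at 2 mM, and 679, 757 and 766 with ChREBPβ at 11 mM. Its 4 groups did not overlap, and ChREBPβ raised it on the log2 scale by 0.65 ± 0.05 and 0.38 ± 0.05. Eno1, the enolase of most tissues, had 832, 889 and 992 CPM with GFP at 2 mM, 1379, 1313 and 1428 with GFP at 11 mM, 1625, 1720 and 1685 with ChREBPβ at 2 mM, and 1835, 1959 and 1942 with ChREBPβ at 11 mM. These were again separate groups in the same order, with log2 fold changes of 0.89 ± 0.05 and 0.48 ± 0.05. Pgam1, the phosphoglycerate mutase, was called higher at 0.61 ± 0.05 and 0.37 ± 0.05, and Aldoa, the main aldolase of muscle and most cells, at 0.34 ± 0.06 and 0.44 ± 0.06. With library totals Aldoa at 2 mM stood at 0.24 and was no longer called.

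Aldoc, the brain aldolase, was the member of lower glycolysis called lower. It had 1.62, 2.27 and 2.31 CPM with GFP at 2 mM, 1.81, 1.45 and 1.52 with GFP at 11 mM, 1.0, 1.34 and 1.25 with ChREBPβ at 2 mM, and 0.921, 1.11 and 1.3 with ChREBPβ at 11 mM. Each ChREBPβ library was below each GFP library of its glucose level, with log2 fold changes of -0.77 ± 0.21 at 2 mM and -0.53 ± 0.21 at 11 mM. At 11 mM the adjusted p was 0.041 by edgeR's quasi-likelihood test, and the call was lost with DESeq2 (-0.51), in a fit of only the groups compared (-0.52) and without GFP 11 mM library a (-0.43) or c (-0.57), ChREBPβ 2 mM library c (-0.53) or ChREBPβ 11 mM library a (-0.41) or b (-0.53). Tpi1, for the triose isomerase that all glycolytic cells need, was listed at 0.146 to 0.466 CPM and was not called, at 0.49 ± 0.41 and 0.17 ± 0.38. Gapdh, Pgk1, Eno1, Aldoa, Pgam1, Pkm and Tpi1 have near-identical copies elsewhere in mammalian genomes, so their counts are uncertain where the counting program split such reads, which was not tested.

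Among the polyol and fructose enzymes, Khk, for the ketohexokinase that phosphorylates fructose, was called lower at both glucose levels. It had 5.59, 6.76 and 5.9 CPM with GFP at 2 mM, 4.23, 3.78 and 3.13 with GFP at 11 mM, 3.98, 2.51 and 3.1 with ChREBPβ at 2 mM, and 2.29, 2.37 and 2.14 with ChREBPβ at 11 mM. The GFP libraries at 2 mM were the highest and the ChREBPβ libraries at 11 mM the lowest, while the remaining 2 groups overlapped. Its change with ChREBPβ came to -0.97 ± 0.16 at 2 mM and -0.71 ± 0.16 at 11 mM on the log2 scale. Akr1b1, the aldose reductase that makes sorbitol, and Sord, which turns sorbitol into fructose, were not called, with log2 fold changes at 2 mM of 0.21 ± 0.05 and -0.08 ± 0.06.

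H6pd and Pgls act in the oxidative branch, which makes NADPH, and Rpia, Rpe, Tkt and Taldo1 in the branch that rearranges sugars without oxidation. Tkt, the transketolase, had 210, 225 and 254 CPM with GFP at 2 mM, 340, 329 and 350 with GFP at 11 mM, 651, 689 and 683 with ChREBPβ at 2 mM, and 731, 820.5 and 831 with ChREBPβ at 11 mM. All ChREBPβ libraries were above all GFP libraries, with log2 fold changes of 1.56 ± 0.06 at 2 mM and 1.23 ± 0.06 at 11 mM (edgeR quasi-likelihood test, adjusted p = 1.9e-14 and 1.1e-12). Rpia, the ribose 5-phosphate isomerase, had 28.1, 30.2 and 26.1 CPM with GFP at 2 mM, 33.4, 33.5 and 36.8 with GFP at 11 mM, 59.1, 57.7 and 58.3 with ChREBPβ at 2 mM, and 55.8, 59.3 and 60.2 with ChREBPβ at 11 mM. The 2 ChREBPβ groups overlapped each other and were above the GFP groups, with log2 fold changes of 1.05 ± 0.06 and 0.76 ± 0.06. Taldo1, the transaldolase, was called higher at 0.61 ± 0.05 and 0.59 ± 0.05. Rpe, the epimerase beside them, was not called, at -0.12 ± 0.08 and -0.11 ± 0.08. In the oxidative branch, H6pd, the enzyme of the endoplasmic reticulum, was called lower at 2 mM, at -0.41 ± 0.08, and stood at -0.22 ± 0.08 at 11 mM, while Pgls was not called, at -0.03 ± 0.05 and -0.04 ± 0.05.

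Gpd1, the cytosolic glycerol 3-phosphate dehydrogenase that draws on a glycolytic intermediate to make the backbone of triglycerides and to carry electrons, had the largest log2 fold change of the 39 tested members at 2 mM. It had 295, 318 and 325 CPM with GFP at 2 mM, 596, 566 and 648 with GFP at 11 mM, 1607, 1735 and 1717 with ChREBPβ at 2 mM, and 2067, 2341 and 2260 with ChREBPβ at 11 mM. The 4 groups did not overlap. The change came to 2.43 ± 0.06 at 2 mM and 1.88 ± 0.06 at 11 mM on the log2 scale (edgeR quasi-likelihood test, adjusted p = 1e-17 and 7.1e-16). Gpd2, its mitochondrial partner in the glycerol phosphate shuttle, was not called, at -0.22 ± 0.05 and -0.13 ± 0.05. The log2 ratio of Gpd1 to Gpd2 was higher with ChREBPβ by 2.65 ± 0.08 at 2 mM and by 2.01 ± 0.11 at 11 mM.

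**Figure D3:**
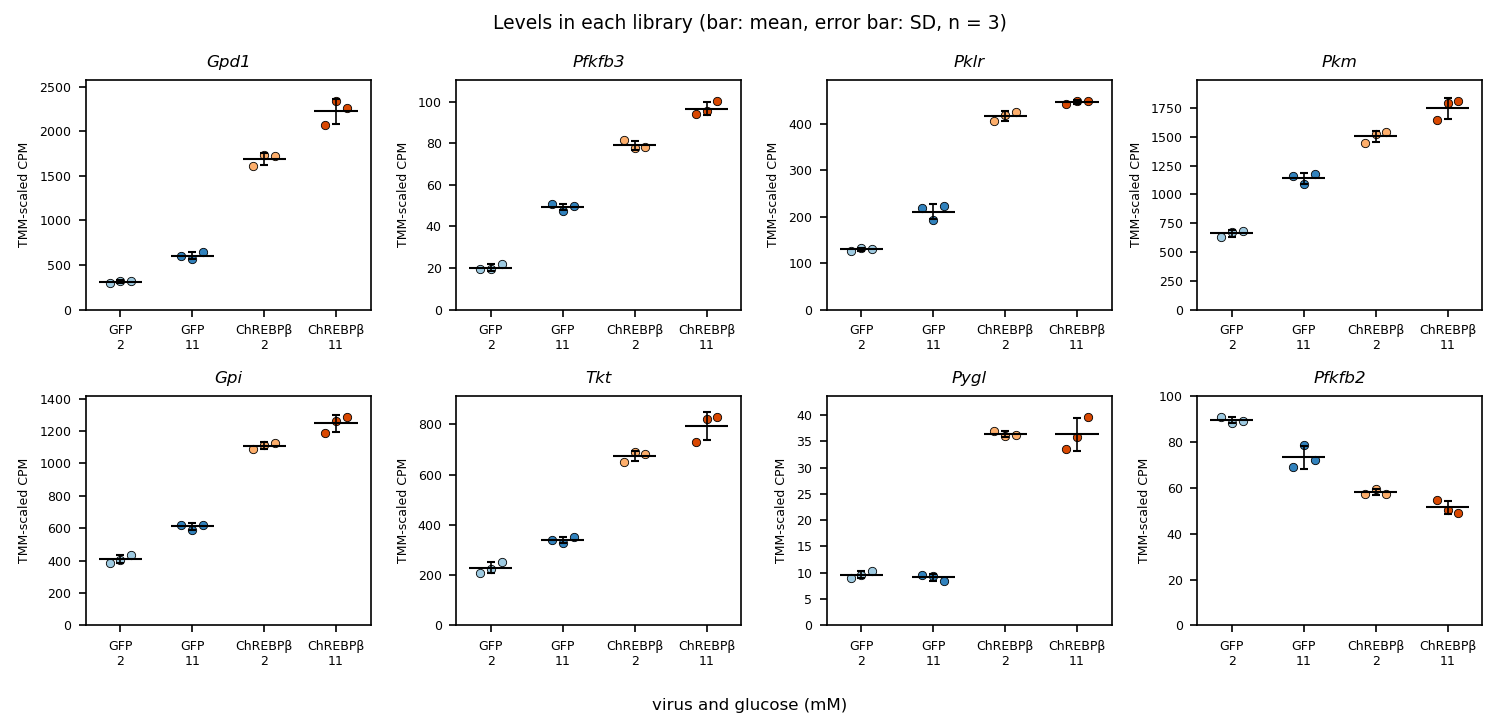
Level of 8 members in each of the 12 libraries (y axis, TMM-scaled CPM starting at 0; x axis, virus and glucose in mM), with 1 point for each library, a bar for the mean and an error bar for the SD (n = 3). Gpd1 runs from 295 to 2341 CPM, Pygl separates by virus alone, and Pfkfb2 is the only 1 of these 8 panels in which the ChREBPβ libraries are below the GFP libraries.

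Of the 7 glycogen enzymes, 2 were called higher and 1 lower with ChREBPβ at 2 mM, beside 21.0% and 23.2% of all genes. As a set they were thus near the background at 2 mM. At 11 mM, 2 of the 7 were called higher and 0 lower, beside 14.3% and 19.1% of all genes. Pygl, the liver glycogen phosphorylase that releases glucose units from glycogen, had 9.08, 9.65 and 10.3 CPM with GFP at 2 mM, 9.67, 9.29 and 8.4 with GFP at 11 mM, 37, 36 and 36.2 with ChREBPβ at 2 mM, and 33.6, 35.9 and 39.7 with ChREBPβ at 11 mM. The libraries separated by virus and overlapped between glucose levels. ChREBPβ raised Pygl by a log2 1.91 ± 0.08 at 2 mM and 2.00 ± 0.07 at 11 mM (edgeR quasi-likelihood test, adjusted p = 2.9e-14 and 1.4e-14). Pygb, the brain phosphorylase, was called higher by less, at 0.44 ± 0.04 and 0.32 ± 0.04, and at 11 mM it stood at 0.23 and was not called with library totals. The log2 ratio of Pygl to Pygb rose by 1.47 ± 0.04 and 1.68 ± 0.09. On the side of synthesis, Gys1, the glycogen synthase of muscle and most tissues, was not called, at -0.05 ± 0.07 and 0.01 ± 0.07, and neither were Ugp2, which makes UDP-glucose, at 0.16 ± 0.05 and 0.14 ± 0.05, Gbe1, the branching enzyme, at -0.19 ± 0.08 and -0.10 ± 0.08, or Pgm1, a phosphoglucomutase, at -0.24 ± 0.05 and -0.20 ± 0.05. Pgm2, the other phosphomutase of the list, was called lower at 2 mM, at -0.33 ± 0.05, and was at -0.23 ± 0.05 at 11 mM.

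The glucose comparison in GFP cells gives the response of the cells without added ChREBPβ. Of the 39 members, 15 were called higher and 2 lower at 11 mM, beside 10.2% and 10.0% of all genes. The largest log2 changes among members with at least 10 counts in every library were those of Pfkfb3, at 1.29 ± 0.06, and Gpd1, at 0.95 ± 0.06. Pkm followed at 0.78 ± 0.05, then Pklr at 0.70 ± 0.05, Pfkfb4 at 0.70 ± 0.16, Eno1 at 0.60 ± 0.05, Gpi at 0.58 ± 0.04 and Tkt at 0.56 ± 0.06. Gapdh, Pgk1 and Pgam1 were called at 0.52 ± 0.05, 0.50 ± 0.05 and 0.42 ± 0.05, and Pfkp at 0.35 ± 0.05. Some smaller changes lost their call without single libraries. Pfkl stood at 0.30 ± 0.05 and fell under the minimum fold without GFP 11 mM library a (0.24), as did Pfkfb2, at -0.29 ± 0.05 and -0.25 without it. Rpia stood at 0.30 ± 0.06 and at 0.25 without GFP 2 mM library c or GFP 11 mM library c. Slc2a3, at 1.41 ± 0.49, lost its call without any of 5 libraries, GFP 2 mM a (1.01) or c (1.41) and GFP 11 mM a (1.36), b (1.42) or c (1.47). Khk was called lower at -0.72 ± 0.15. No glycogen enzyme of the 7 was called, and Pygl stood at -0.09 ± 0.08. The GFP libraries at 11 mM were all above those at 2 mM for 21 members and all below for 4, beside 21.8% and 20.3% of all genes.

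The glucose comparison in GFP cells and the ChREBPβ comparisons share GFP libraries, so their calls are not independent of each other. Of the members called higher with ChREBPβ at both glucose levels, those not called with glucose in GFP cells were Slc2a2, Hk2, Aldoa, Taldo1, Pygb and Pygl, whose values with ChREBPβ are given above. On the log2 scale, their changes with glucose in GFP cells were, beside -0.09 for Pygl, 0.16 ± 0.04 for Slc2a2, 0.23 ± 0.43 for Hk2, 0.09 ± 0.06 for Aldoa, 0.18 ± 0.05 for Taldo1 and 0.20 ± 0.04 for Pygb. Set directly against GFP at 11 mM, ChREBPβ at 2 mM had 14 members called higher and 3 lower, beside 12.2% and 14.8% of all genes. Pygl was highest there, at 2.00 ± 0.07, with Hk2 at 1.73 ± 0.32, Gpd1 at 1.48 ± 0.06, Tkt at 0.99 ± 0.06, Pklr at 0.98 ± 0.05 and Gpi at 0.86 ± 0.04. This comparison uses the same GFP libraries at 11 mM as the glucose comparison in GFP cells. Eno1, at 0.29 ± 0.05, was no longer called without GFP 11 mM library b (0.26), with upper quartile factors (0.25) or with library totals (0.22). The 3 called lower were Pfkfb2 at -0.34 ± 0.05, Gpd2 at -0.34 ± 0.05 and Gbe1 at -0.33 ± 0.08, the last at -0.24 and not called without ChREBPβ 2 mM library c. With library totals the split was 13 higher and 6 lower, and over all called genes the share higher went from 45.2% to 33.0%.

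In ChREBPβ cells, raising glucose from 2 to 11 mM gave 2 members called higher, Pfkfb3 at 0.29 ± 0.05 and Gpd1 at 0.40 ± 0.05, and 0 lower, beside 0.988% and 2.88% of all genes. With no minimum fold the edgeR quasi-likelihood test called 12 members higher, beside 399 of all 14669 genes. All ChREBPβ libraries at 11 mM were above all those at 2 mM for 20 members and below them for 4, beside 14.0% and 14.9% of all genes. Without ChREBPβ 11 mM library a, 5 members were called higher, the added ones being Slc2a1 (0.34), Pgk1 (0.28) and Tkt (0.29), and without ChREBPβ 2 mM library b 1 was called lower, Khk (-0.62). The difference between the glucose effects was tested directly as the interaction of virus and glucose. There 11 members were called lower and 0 higher, beside 4.74% and 1.56% of all genes, so that for these the ChREBPβ effect was smaller at 11 mM than at 2 mM. The glucose change in GFP cells enters this difference with a minus sign, so the calls of the 2 comparisons are not independent.

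**Figure D4:**
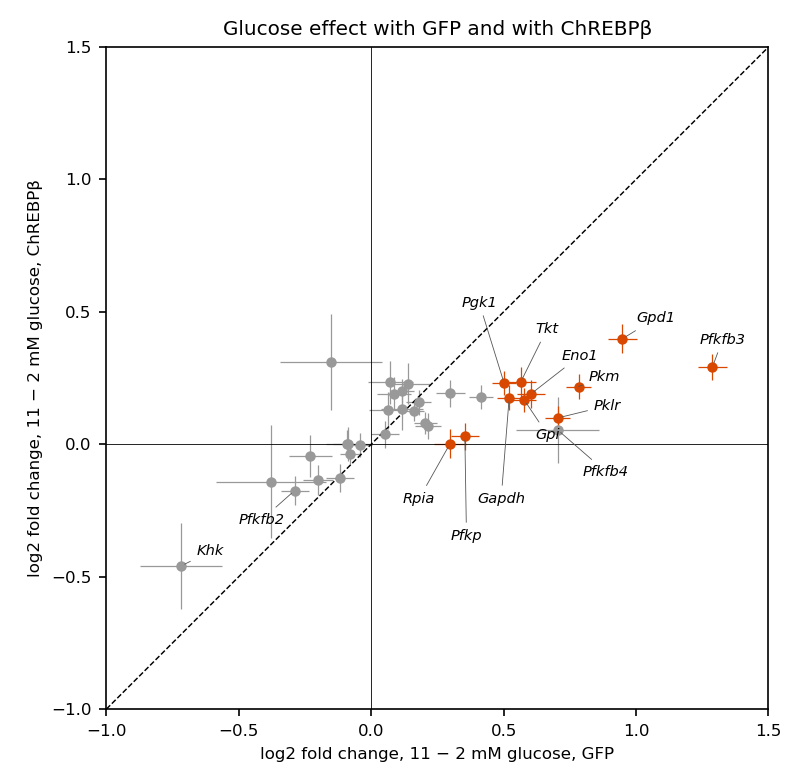
Log2 fold change from 2 to 11 mM glucose in GFP cells (x axis) and in ChREBPβ cells (y axis) for 36 tested members, with SE bars, leaving out the low-count Slc2a3, Hk2 and Tpi1. Orange marks the 11 members called in the interaction, and the dashed line marks equal effects. The 11 lie below it, which the sign of their call fixes.

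Among the 11 called members Pfkfb3 had the largest difference, -0.996 ± 0.07 on the log2 scale (edgeR quasi-likelihood test, adjusted p = 2.4e-08), since glucose changed it by 1.29 with GFP and by 0.29 with ChREBPβ. Next among them was Pklr at -0.61 ± 0.07, with 0.70 in GFP cells and 0.10 in ChREBPβ cells, then Pkm at -0.57 ± 0.07 and Gpd1 at -0.55 ± 0.08. Eno1 and Gpi were both at -0.41, and Gapdh, Tkt, Pfkp, Rpia and Pgk1 lay between -0.34 and -0.27. The low-count Slc2a3 stood at -1.22 ± 0.62 and was not called. Pfkfb4 stood at -0.65 ± 0.20 and was not called either (adjusted p = 0.052), but was called with DESeq2 (-0.63), with no filter (-0.65) and without GFP 2 mM library a (-0.84), GFP 11 mM library b (-0.71) or ChREBPβ 2 mM library b (-0.76). The least firm calls were those of Pgk1, Rpia and Tkt. Pgk1 fell under the minimum fold with RLE, upper quartile, library total or DESeq2 scaling (-0.26 to -0.25) and without library a of GFP 2 mM (-0.25), GFP 11 mM (-0.25) or ChREBPβ 11 mM (-0.22). Rpia was lost without GFP 2 mM library c (-0.24), GFP 11 mM library c (-0.25), ChREBPβ 2 mM library a (-0.29), b (-0.31) or c (-0.30) or ChREBPβ 11 mM library a (-0.26), and Tkt without GFP 11 mM library c (-0.31) or ChREBPβ 2 mM library b (-0.32). Pygl showed no called difference, at 0.09 ± 0.11, and the same held for Taldo1 at -0.02 ± 0.07, Pfkl at -0.11 ± 0.08 and Slc2a2 at -0.03 ± 0.06.

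Of the members, 11 were called in none of the 6 comparisons, Slc2a1, Pfkm, Pfkfb1, Tpi1, Sord, Akr1b1, Pgls, Rpe, Pgm1, Ugp2 and Gys1. A wider list of 52 other pathway genes, 40 of them tested, gave 8 called higher and 10 lower with ChREBPβ at 2 mM, 7 and 9 at 11 mM, and 8 and 2 with glucose in GFP cells. The shares of all genes were 21.0% and 23.2%, 14.3% and 19.1%, and 10.2% and 10.0%, so 8 and 10 of 40 at 2 mM were near the background. Its largest increase at 2 mM was that of Ppp1r3c, a subunit that targets protein phosphatase to glycogen, at 0.968, 4.27, 28.8 and 35.4 CPM on average with GFP at 2 and 11 mM and with ChREBPβ at 2 and 11 mM, a log2 fold change of 4.91 ± 0.11 at 2 mM. Slc2a4, for the insulin-regulated transporter GLUT4, averaged 9.35, 25.2, 73.3 and 79.0 CPM in the same order, at 2.97 ± 0.05. Slc16a1, for the lactate and pyruvate carrier MCT1, averaged 5.16, 14.5, 30.5 and 37.8 CPM, at 2.55 ± 0.08.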

How the data were processed

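RNA of 12 INS-1 libraries was sequenced. The authors deposited raw counts per gene, without normalization, beside 4 columns of group means of those counts, which were not used. The submitters' processing notes name the Rnor_6.0 build and edgeR; the aligner and the counting program are not given in the sources used here. The number of other columns of single samples was 0. A single entry without a name held 0.0043% to 0.00601% of a library and was left out. Time in culture is the 48 h given for the sequencing, while the study's general adenovirus methods describe a longer schedule.

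Genes were filtered with filterByExpr by group in edgeR 4.0.16 (R 4.3.3), which kept 14669. Counts were scaled by TMM (factors 0.958 to 1.06), and 1 quasi-likelihood model on group, with no covariate, was fitted to all 12 libraries. The 5 contrasts between groups and the interaction were adjusted by Benjamini-Hochberg over all genes, and a gene was called at an adjusted p under 0.05 and at least 1.2-fold. SE is the log2 fold change divided by the square root of F. The study describes its replicates as independent experiments, while the labels do not tie each library to a culture, so p-values measure the spread between these libraries. Pairs within a group differed by 3.13 to 17.5 in chi-square per degree of freedom, so no pair agreed within counting noise. The fits were tested on simulated data in which 200 of 14669 genes were changed in 1 group. For ChREBPβ against GFP at 2 mM, edgeR's quasi-likelihood test recovered 171 of the 200, with 8 false calls among 14308 unchanged genes. These counts are not split by size of change, and recovery of changes near the 1.2-fold minimum was not tested. With so few genes changed, the simulation cannot test the scaling where many genes move.

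Library letters a to c recur in each group. Deviations of same-letter libraries correlated at -0.114 to 0.0644 over 18 pairs, with 0 over 0.1, so the letters were not taken to pair libraries. All 40 members are named by role, with library values for those among the 3 largest increases or decreases called in the ChREBPβ comparisons within a glucose level or in glucose with GFP, or called in the interaction. Members, lists and tests were chosen with earlier results of these data known. Levels were not compared between genes, since transcript lengths were not used here, and ratios of 2 members are compared between groups only, with the SE taken from the 3 libraries a group. Alternatives were DESeq2 1.42.0, RLE and upper quartile factors, library totals, a minimum of 10 counts in each library, no filter, a replicate block, only the groups compared, no minimum fold, 2-fold, and leaving out each library. Results for some single genes of the wider pathway list are not reported here.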

Additional observations from a re-analysis of the deposited data

Results flagged for a closer look

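In 11 members the effect of ChREBPβ at 11 mM glucose differed from that at 2 mM by edgeR's quasi-likelihood test of the difference itself. The log2 difference was -0.996 for Pfkfb3, -0.61 for Pklr, -0.57 for Pkm, -0.55 for Gpd1, -0.41 for Eno1 and -0.41 for Gpi. It was -0.34 for Gapdh, -0.33 for Tkt, -0.32 for Pfkp, -0.30 for Rpia and -0.27 for Pgk1. All 11 differences are below 0, and over all genes 4.74% were called in that direction.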

How the results depend on the processing

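Of 5089 values of 234 member results under the alternatives, 4811 kept their direction and their side of the threshold, 113 lost a call, 83 gained one, 82 changed sign without being called in either fit and 0 reversed a called change. With library totals 9 members were called lower with ChREBPβ at 2 mM, 6 at 11 mM and 6 in ChREBPβ at 2 mM against GFP at 11 mM, the last also 6 with upper quartile factors. Of all 14669 genes, those called lower were 4421, 3698 and 2882 with library totals in that order, and 2526 with upper quartile factors. With no minimum fold, 7 were called lower with ChREBPβ at 11 mM, 4 with glucose in GFP cells and 7 in ChREBPβ at 2 mM against GFP at 11 mM, and 12 were called higher with glucose in ChREBPβ cells, since smaller changes then count. Of all 14669 genes, 3836, 2361 and 3128 were then called lower in that order, and 399 higher with glucose in ChREBPβ cells. With a 2-fold minimum, 12 were called higher with ChREBPβ at 2 mM, 6 at 11 mM, 2 with glucose in GFP cells, 0 with glucose in ChREBPβ cells and 3 in ChREBPβ at 2 mM against GFP at 11 mM, with 0 lower in each of these and in the interaction. Of all 14669 genes, 748, 571, 183, 7 and 501 were called higher at that minimum in the same order. Those called lower were 708, 421, 111, 21 and 294, and 97 in the interaction. Leaving out single libraries gave 1 to 2 called lower with glucose in GFP cells, 2 to 5 higher and 0 to 1 lower with glucose in ChREBPβ cells, and 3 to 5 lower in ChREBPβ at 2 mM against GFP at 11 mM. The replicate block moved 1 count, the last, from 3 to 4 by adding Slc2a1 at -0.27, and left the other counts of calls as they were. The fit of only the groups compared gives no separate value for the interaction, which uses all 4 groups. Shares of isoforms were not run, since transcript lengths were not used here. Depth limits Slc2a3, Hk2, Tpi1 and Eno2, which fell under 10 counts in some library. The SEs printed for Slc2a3, Hk2 and Tpi1 come from the same fit as those of the other members, and rest on few counts.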

Other observations

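Among the wider pathway genes, those called lower with ChREBPβ included Tigar, a phosphatase that lowers fructose 2,6-bisphosphate, at a log2 fold change of -0.77 ± 0.05 at 2 mM and -0.76 ± 0.05 at 11 mM. Slc2a5, for the fructose transporter GLUT5, stood at -1.82 ± 0.21 and -1.27 ± 0.23, in the same direction as the ketohexokinase gene Khk. Of 5 subunits of the kinase that activates glycogen phosphorylase, the regulatory Phkb, Phka2 and Phka1 were called lower at 2 mM at -0.61 ± 0.08, -0.64 ± 0.22 and -0.30 ± 0.06, while the catalytic Phkg1 and Phkg2 were not called, at 0.14 ± 0.05 and -0.10 ± 0.06. The glycogen-targeting subunit Ppp1r3b was called higher at 1.54 ± 0.06 at 2 mM and 0.91 ± 0.05 at 11 mM, and Ppp1r3d at 0.45 ± 0.05 and 0.43 ± 0.05. The low Ppp1r3e went the other way on average. It stood at 0.935 CPM with GFP and 0.608 with ChREBPβ at 2 mM, and at 0.679 and 0.540 at 11 mM. Ppp1r3g was at most 0.0179 CPM in any library. The change with ChREBPβ was unequal at 11 and 2 mM, by edgeR's quasi-likelihood test of the difference, for Ppp1r3c (-1.86 ± 0.16), Slc2a4 (-1.32 ± 0.07), Slc16a1 (-1.17 ± 0.10) and Ppp1r3b (-0.62 ± 0.08). These genes were named after their values were seen.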
